A study of Homo sapiens with 9 samples.

Results

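The 35 genes described here encode the transcription factor ATF4, factors and feedback regulators that act with it, enzymes and transporters that supply amino acids, and 8 cytosolic aminoacyl-tRNA synthetases. They were chosen by name, and each matched 1 Ensembl identifier among the 61093 genes of the deposited table. All 35 passed the filter on low values, a normalized count of at least 10 in at least 3 libraries, as did 17492 genes in all. The study measured RNA in 9 libraries of cells labelled HepG2, a hepatocellular carcinoma line, in 3 groups of 3. The treatment label of control is empty, another group was given SKF-96365 and the last 2-APB. The series text presents SKF-96365 as an inhibitor and 2-APB as an agonist of the cation channel TRPV2, and both compounds are known to act on other channels too. No genotype or allele sets the groups apart in the labels. Titles of the 2-APB samples spell the compound ABP, and their value columns carry the name TRPV2, so they were assigned by their treatment label. Dose, exposure time, vehicle and batch are not given in the sources used here. Nor is it stated that libraries of a group are separate cultures, so p-values measure only the spread between these samples.

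ATF4 is the effector of the integrated stress response. Kinases that sense amino acid shortage, misfolded protein in the endoplasmic reticulum, double-stranded RNA or heme shortage phosphorylate the initiation factor eIF2, which slows general translation but favours translation of the ATF4 message. Control of ATF4 is therefore largely translational, and its mRNA level need not follow its protein. With C/EBP family partners ATF4 binds composite elements near genes for amino acid synthesis, uptake and tRNA charging. A later part of the same programme, with DDIT3 (CHOP), TRIB3 and PPP1R15A, feeds back on the pathway or accompanies cell death. In liver cells the programme links nutrient supply to protein secretion.

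The composite element is the sequence feature these genes are best known for. Its core letters, TGATGNAA or the reverse complement TTNCATCA, were searched on both strands of RefSeq promoter windows (GRCh38.p14) from 250 bases before to 50 bases after each listed start. Windows were held for 30 of the 35 genes. PSPH, SHMT2, SLC7A11, NUPR1 and PYCR1 had no entry. The letters occurred for 12 of the 30 genes (40.0%), against 4.46% of all 27305 genes with a window, and in 12 of 47 windows (25.5%) against 3.62% of 35116. A match describes letters and is not a binding site. Because the genes were named as ATF4 targets and relatives, the higher share describes the list and not these data. The 30 bases around the match are shown for 6 genes, in the direction of transcription and with the core in capitals. These 6 were picked after library orders were seen. ASNS and AARS1 were highest in control 3, SKF-96365 2 and SKF-96365 3, where CEBPG, SLC1A5 and MARS1 were lowest. CHAC1 had neither order. Any part of the letters in these orders was not tested.
ASNS, chr7:97872458-97872487, minus strand: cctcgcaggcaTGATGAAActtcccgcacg
CHAC1, chr15:40953251-40953280, plus strand: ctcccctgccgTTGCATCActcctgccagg
CEBPG, chr19:33374060-33374089, plus strand: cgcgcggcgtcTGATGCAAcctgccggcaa
SLC1A5, chr19:46784893-46784922, minus strand: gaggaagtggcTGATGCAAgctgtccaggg
AARS1, chr16:70289675-70289704, minus strand: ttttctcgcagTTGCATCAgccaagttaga
MARS1, chr12:57488053-57488082, plus strand: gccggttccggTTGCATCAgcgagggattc
The core begins 68 bases before the listed start in ASNS, 209 in CHAC1, 187 in AARS1, 42 in CEBPG, 97 in SLC1A5 and 4 in MARS1. CEBPG and SLC1A5 have other listed starts as well.

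Depth was 14786059 to 19026545 reads in the 8 libraries whose reads were recovered from the normalized values, and the 35 genes together took 0.478% to 0.536% of the normalized signal. Markers of hepatocytes were almost absent: of 13, only SERPINA1 passed the filter, the 13 summed to 220 to 562 normalized counts per library, and from 1 to 8 of them were at 0. ALB reached at most 11.8 and HNF4A at most 2.58, so the data go against a hepatocyte-like state of the labelled line. Of 5 epithelial markers 4 passed, with all 5 summing to 110775 to 149409 per library, and all 9 mesenchymal markers passed, summing to 37167 to 50233. The labels did not describe which libraries were alike. Control 3 lay closest to SKF-96365 2 and SKF-96365 3 over all tested genes (Pearson r 0.988 and 0.986, against 0.961 and 0.957 to control 1 and control 2), and SKF-96365 1 lay closest to 2-APB 3 (0.988). The mitochondrial genome contributed 6.90% to 8.04% of the signal per library. A list of 14 proliferation genes summed to between 35731 and 37770 normalized counts in control 3 and the last 2 SKF-96365 libraries, and between 47738 and 69419 in the other 6 libraries. The part of these differences in the results below was not tested.

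Among the 35 genes the same closeness of libraries appeared. The median absolute log2 difference of a gene was 0.053 between 2-APB 1 and 2-APB 2, 0.062 between control 3 and SKF-96365 2, and 0.064 between SKF-96365 2 and SKF-96365 3. It was 0.36 between control 1 and control 3, which share a label. Over all tested genes these 4 values were 0.11, 0.13, 0.13 and 0.42. The highest library exceeded the lowest by a median of 1.53-fold for the 35 genes and 1.81-fold for all tested genes above 0 in all 9 libraries, and by at least 2-fold for 11 of the 35 (31.4%, against 42.1%). Control 3, SKF-96365 2 and SKF-96365 3 held the 3 lowest values of 11 of the 35 genes (31.4%, against 17.6% of all tested genes) and the 3 highest of 6 (17.1%, against 16.4%). The 11 were ATF4, ATF5, CEBPG, PHGDH, PSPH, SHMT2, MTHFD2, SLC1A5, SARS1, NARS1 and MARS1, and the 6 were DDIT3, STC2, PPP1R15A, ASNS, SLC38A2 and AARS1. The 3 libraries were singled out after values were seen, so these counts are a description. Between genes, levels can be set side by side only per length. Per kilobase of the longest protein-coding GENCODE 29 transcript, SLC7A5 (2737 normalized counts), SLC38A2 (2434) and SLC3A2 (2187) had the highest means over 9 libraries. PSAT1 (16.6), CHAC1 (25.5) and ASNS (27.9) were among the lowest, and the ASNS value is limited by an exon overlap given below.

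**Figure D1:**
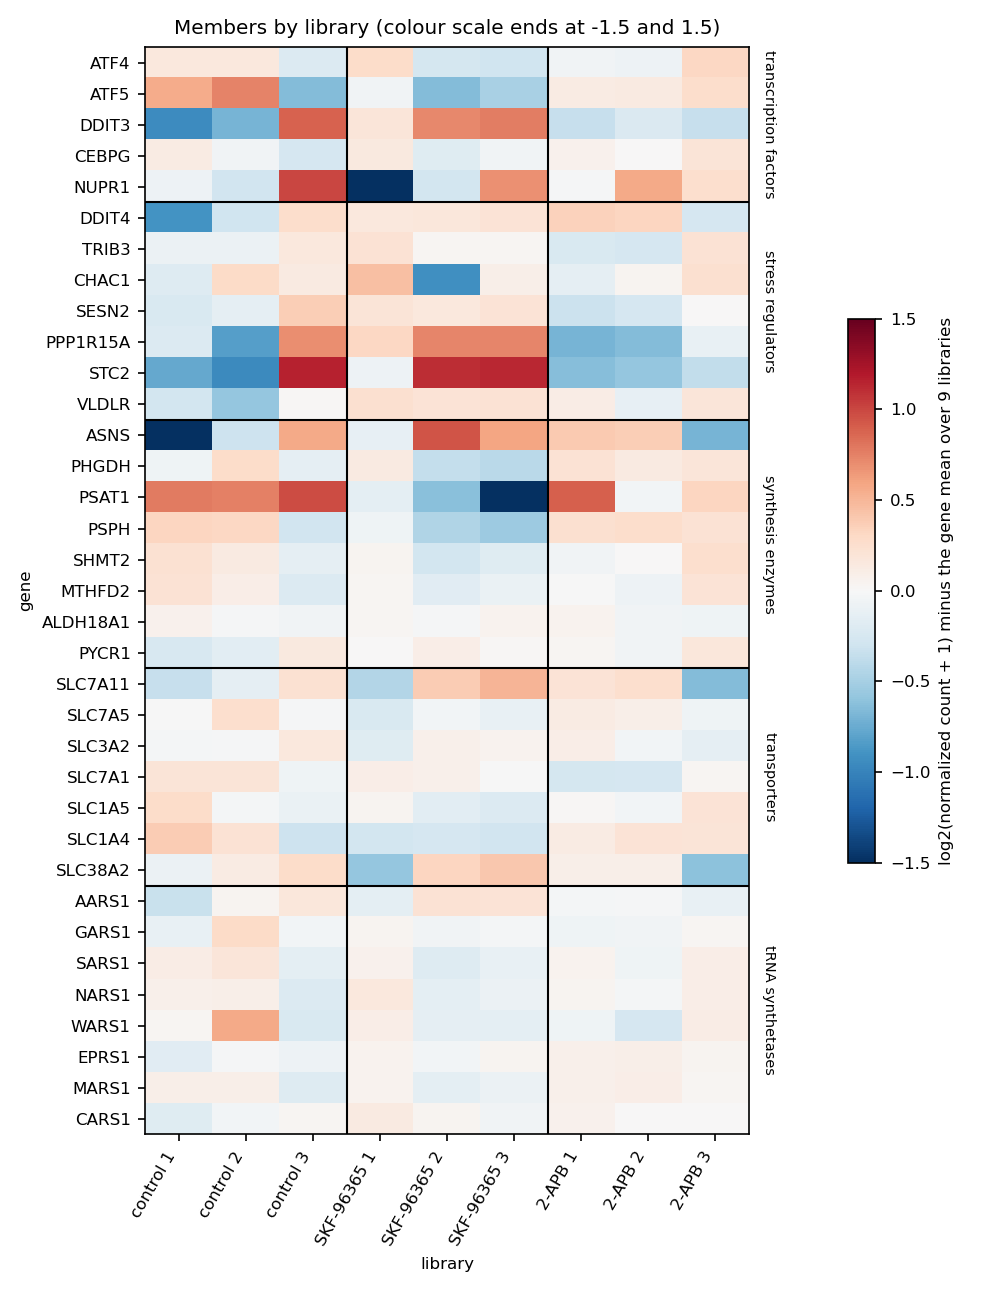
Heat map of the 35 genes (rows, grouped by role) over the 9 libraries (columns, ordered by labelled group), with colour for log2(normalized count + 1) minus the gene's mean over the 9 libraries. Control 3 resembles SKF-96365 2 and SKF-96365 3, with DDIT3, PPP1R15A and STC2 red and ATF4, ATF5 and PSPH blue in these 3 columns.

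Among the transcription factors, ATF4 varied as much as the median of the 35 genes, 1.53-fold between its highest and lowest library. Its normalized counts, in replicate order, were 3748, 3747 and 2897 in the control libraries, 4067, 2788 and 2715 with SKF-96365, and 3216, 3173 and 4144 with 2-APB. The highest libraries, 2-APB 3 and SKF-96365 1, belong to different groups, and all 3 groups overlap. DDIT3, which encodes the pro-apoptotic factor CHOP, stood at 112, 132 and 396 in control, 243, 354 and 367 with SKF-96365 and 169, 184 and 169 with 2-APB. Its 3 highest values were in control 3, SKF-96365 3 and SKF-96365 2, where ATF4 had its 3 lowest. ATF5, a relative of ATF4 that is also translationally controlled, ran the other way from DDIT3, at 331, 377 and 143 in control, 217, 143 and 161 with SKF-96365 and 246, 247 and 270 with 2-APB. Annotation limits both genes: in GENCODE 29, 355 exon bases of DDIT3 lie opposite exons of MARS1 and 626 of ATF5 opposite NUP62, and strand use in counting is not stated. DDIT3 also has 58 exon bases opposite MBD6. MARS1 was low in the libraries in which DDIT3 was high, and any part of these overlaps in the values was not tested. CEBPG, a dimerization partner of ATF4, ranged only from 501 in control 3 to 679 in 2-APB 3. NUPR1, a small stress-induced chromatin protein gene, was near the detection limit at 1.75 to 18.8, and no order of its groups can be read.

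Among stress regulators and feedback genes the widest range was that of STC2. STC2, a secreted glycoprotein gene induced by endoplasmic reticulum stress, stood at 408, 358 and 1548 in control, 659, 1503 and 1525 with SKF-96365 and 448, 464 and 539 with 2-APB. Control 3 was the highest of all 9 and over 3 times control 1. PPP1R15A encodes GADD34, the phosphatase subunit that reverses eIF2 phosphorylation. It stood at 881, 568 and 1646 in control, 1259, 1681 and 1678 with SKF-96365 and 625, 645 and 939 with 2-APB, so that every SKF-96365 library lay above every 2-APB library while control spanned both. DDIT4, which encodes the mTORC1 inhibitor REDD1, was at 1659, 2519.7 and 3704 in control, 3443, 3479 and 3552 with SKF-96365 and 3918, 3874 and 2596 with 2-APB. Here control 1 was the lowest, and control 3 lay above all 3 SKF-96365 values but below 2-APB 1 and 2-APB 2. VLDLR, a lipoprotein receptor gene, was at 232, 187 and 283 in control, 332, 324 and 325 with SKF-96365 and 301, 258 and 318 with 2-APB. All 3 SKF-96365 values lay above all 3 control values.

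SESN2, which encodes a leucine sensor that restrains mTORC1, stood at 389, 416 and 591 in control, 522, 509.9 and 526 with SKF-96365 and 363, 381 and 458 with 2-APB. Every SKF-96365 value was above every 2-APB value, and control 3 was the highest. TRIB3, a pseudokinase gene and a late ATF4-CHOP target, ranged only from 448 in 2-APB 2 to 622 in SKF-96365 1. CHAC1, a glutathione-degrading enzyme gene, ranged from 23.6 in SKF-96365 2 to 62.9 in SKF-96365 1, both of them in 1 group. Neither gene had its 3 highest values in control 3, SKF-96365 2 and SKF-96365 3, as DDIT3 had. TRIB3 in these libraries (597, 543 and 547) was above control 1, control 2, 2-APB 1 and 2-APB 2. Only SKF-96365 1 and 2-APB 3 (622 and 620) were higher. CHAC1 was at 50.1 in control 3, between control 1 (40.0) and control 2 (55.8).

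**Figure D2:**
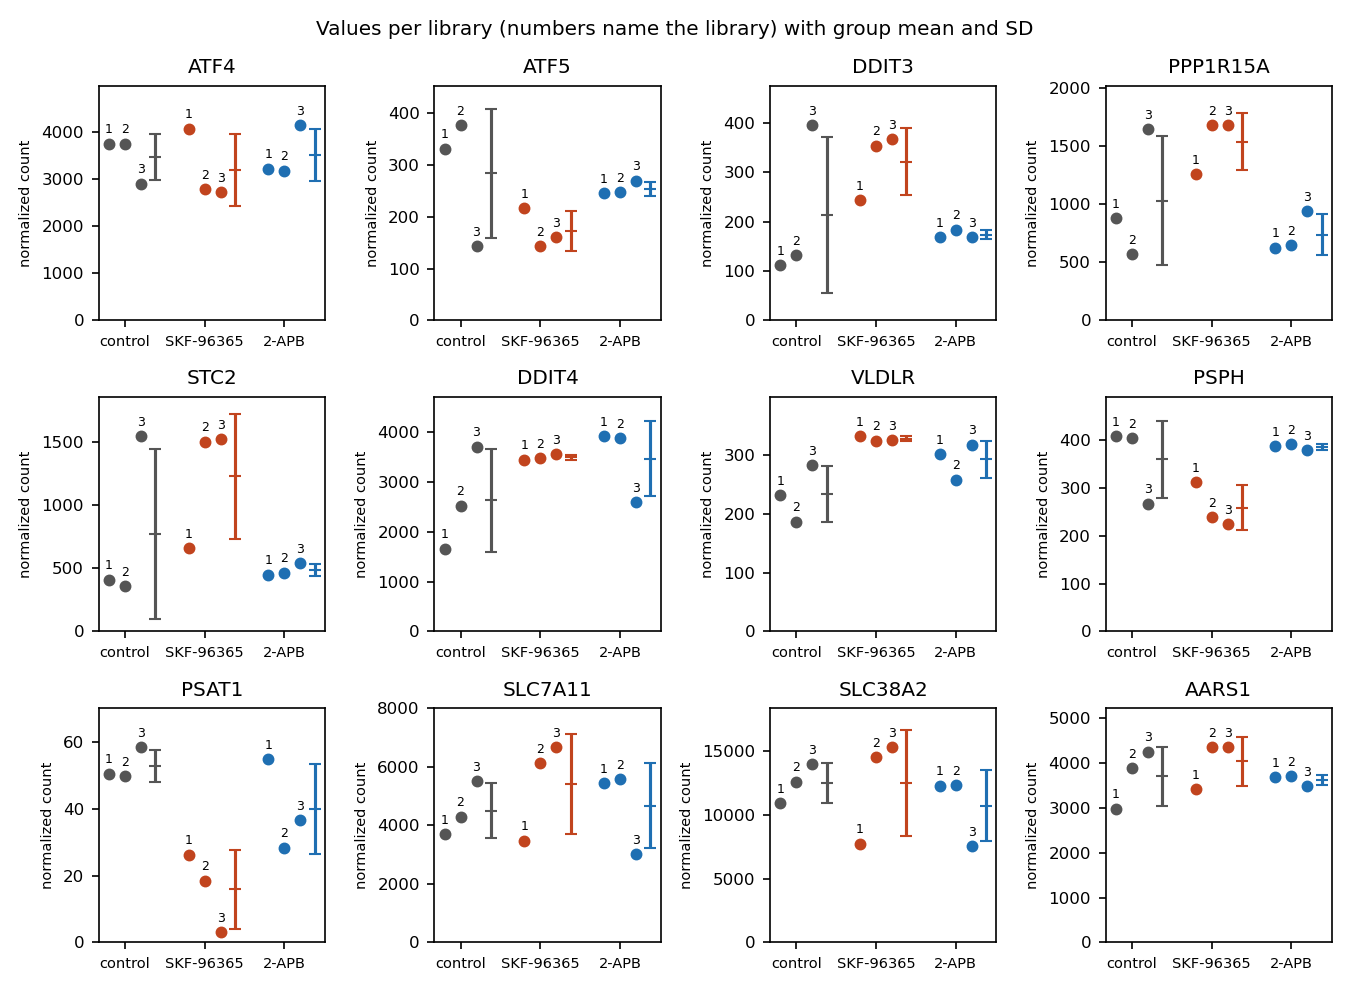
Normalized counts (y axis, from 0) of 12 of the genes in the 3 groups (x axis); points are libraries with their number, and the bar beside them is the group mean with SD (n = 3). Control 3 lies apart from control 1 and control 2 for DDIT3, PPP1R15A and STC2, and SKF-96365 1 and 2-APB 3 are the lowest points for SLC7A11 and SLC38A2.

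Among synthesis enzymes, the 3 genes of the serine pathway differed. PHGDH, the first enzyme, stood at 803, 1017 and 764 in control, 922, 655 and 634 with SKF-96365 and 976, 918 and 949 with 2-APB. PSAT1, the second, was expressed at low levels of 50.5, 49.7 and 58.4 in control, 26.2, 18.5 and 2.98 with SKF-96365 and 54.8, 28.3 and 36.5 with 2-APB. All SKF-96365 values were below all others, and control 3 stood with control 1 and control 2. The lowest, 2.98 in SKF-96365 3, was near the detection limit. PSPH, the last enzyme, stood at 408, 404 and 267 in control, 312, 238 and 224 with SKF-96365 and 387, 392 and 379 with 2-APB. The pseudogene PSPHP1 had a mean of 106, or 31.7% of that of PSPH, and reads of the 2 may be shared. ASNS, asparagine synthetase and a standard ATF4 target, stood at 16.8, 46.7 and 86.6 in control, 53.3, 113 and 88.3 with SKF-96365 and 76.7, 75.6 and 35.5 with 2-APB. It was thus high in control 3, SKF-96365 2 and SKF-96365 3, in which PSPH was low.

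The mitochondrial one-carbon enzymes SHMT2 and MTHFD2 ranged from 1660 to 2398 and from 2816 to 3765. Both were lowest in control 3, SKF-96365 2 and SKF-96365 3. The proline synthesis genes ALDH18A1 and PYCR1 varied by 1.10-fold and 1.33-fold between the highest and the lowest library. ALDH18A1 was the steadiest of the 35 genes.

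Apart from SLC1A4, transporter genes had means of at least 2595 normalized counts over the 9 libraries. SLC7A11 and SLC38A2 varied most, by 2.22-fold and 2.03-fold between the highest and the lowest library. SLC38A2, the amino-acid-regulated glutamine and alanine carrier SNAT2, stood at 10905, 12577 and 13957 in control, 7727, 14481 and 15292 with SKF-96365 and 12278, 12316 and 7534 with 2-APB. SLC7A11, the cystine-glutamate exchanger, stood at 3695, 4293 and 5518 in control, 3471, 6115 and 6675 with SKF-96365 and 5437, 5581 and 3005 with 2-APB. For both genes SKF-96365 1 and 2-APB 3 were the 2 lowest libraries, each far below the others of its own group. The same 2 libraries were the 2 lowest for SLC3A2, the heavy chain that SLC7A11 and SLC7A5 share, and the 2 highest for ATF4, TRIB3, CEBPG and NARS1. That is 3 of 35 genes (8.57%, against 7.20% of all tested genes) and 4 of 35 (11.4%, against 6.44%).

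SLC1A4, a neutral amino acid carrier, stood at 395, 351 and 244 in control, 249.8, 255 and 249 with SKF-96365 and 331, 349.5 and 347 with 2-APB. Its 2-APB values were all above its SKF-96365 values, and control spanned both. SLC7A1, the cationic amino acid carrier CAT-1, stood at 4362, 4377 and 3639 in control, 4102, 4015 and 3808 with SKF-96365 and 3177, 3204 and 3902 with 2-APB, where only 2-APB 1 and 2-APB 2 lay below all other libraries. SLC7A5, the leucine carrier LAT1, ranged from 10569 to 14757, and its 3 SKF-96365 values, at most 11991, were below all control values, of which the lowest was 12257. SLC3A2 and SLC1A5 ranged by 1.26-fold and 1.39-fold.

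The 8 tRNA synthetase genes, whose products charge tRNA with amino acids, spread by 1.19-fold (EPRS1) to 1.77-fold (WARS1) between the highest and lowest libraries. AARS1 stood at 2985, 3886 and 4255 in control, 3416, 4361 and 4353 with SKF-96365 and 3682, 3710 and 3493 with 2-APB, with its 3 highest values in SKF-96365 2, SKF-96365 3 and control 3. SARS1, NARS1 and MARS1 had their 3 lowest values in these libraries. Their MARS1 values were 3280 or less, with 3049 in control 3 the lowest, and MARS1 lay between 3566 and 3727 elsewhere. WARS1, which interferon also induces, was at 2183 in control 2 and from 1236 to 1592 in the other 8. GARS1 was likewise highest in control 2, at 3149 against at most 2655. EPRS1 was at 4831, 5331 and 5122 in control and at 5728, 5759 and 5565 with 2-APB, so the 2 groups did not overlap. CARS1 ranged from 1255 in control 1 to 1575 in SKF-96365 1.

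The effect of the inhibitor on these transcripts was read from SKF-96365 against control. None of the 35 genes passed the test, and neither did any of the 17492 tested (0%; limma, Benjamini-Hochberg adjusted p under 0.05). edgeR and DESeq2 on the reads of 8 libraries, without SKF-96365 3, called 0 of the 35 as well, and 0 and 2 genes in all (0.0114% for DESeq2). Fold changes are differences of log2(normalized count + 1). PSAT1 had means of 52.9 ± 4.83 (SD, n = 3) in control and 15.9 ± 11.8 in the SKF-96365 group. Its log2 fold change was -2.07 (SE 0.61, limma adjusted p = 0.789), the largest of the 35. That of ASNS was 0.96 (SE 0.54), with 0.34 if control 1 was left out and 1.49 if control 3 was. At an unadjusted p under 0.05 stood 3 of 35 genes, against 4.00% of all tested genes. VLDLR (0.50, SE 0.17) was the 1 on the higher side, where 2.06% of tested genes stood, and PSAT1 and PSPH (-0.47, SE 0.19) were on the lower, with 1.94%. edgeR and DESeq2 each put 2 of the 35 there, against 1.49% and 1.40% of the genes they tested.

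Next in order of p were PPP1R15A (0.70, SE 0.33), SLC1A4 (-0.36, SE 0.17) and DDIT3 (0.81, SE 0.40), each with an adjusted p of 0.789 in limma. Of the 35 genes, 15 had positive and 20 negative values, with a median of -0.05, beside -0.004 over all tested genes. Stress regulators were positive in 6 of 7 (median 0.49), transporters negative in 6 of 7 (-0.05), and synthetases negative in 5 of 8 (-0.03). All 14 proliferation genes were negative (median -0.48), and their part was not tested. The groups did not overlap for 3 of the 35 genes (6.20% of all tested genes). VLDLR was higher with SKF-96365 (1 gene, against 3.26%), and PSAT1 and SLC7A5 were lower (2 genes, against 2.94%).

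Control 3 decided what was called. Without it limma called DDIT3 (1.37, adjusted p = 0.0404) and ATF5 (-1.05, adjusted p = 0.0425), 2 of the 35 genes against 1.00% of tested genes. STC2 (1.58, adjusted p = 0.0513) and PPP1R15A (1.11, adjusted p = 0.0537) were not called. At an unadjusted p under 0.05 stood 12 of the 35 without control 3, beside 25.6% of tested genes. The count was 8 if SKF-96365 1 was dropped (12.8% of tested genes) and 1 if control 2 was (1.37%). Without both control 3 and SKF-96365 1, limma called 14 of the 35, 6 higher and 8 lower, against 28.1% of tested genes. Those libraries were left out because they stood with another group, which makes these p-values too small. PSAT1 ran from -1.22 without SKF-96365 3 to -2.61 without SKF-96365 1. Leaving out control 2 gave PPP1R15A its lowest value, 0.34, and VLDLR 0.35. Leaving out control 3 gave the highest, 1.11 and 0.65. DDIT3 had 0.47 and SLC1A4 -0.22 if control 1 was left out, and SLC1A4 had -0.56 if control 3 was.

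For the agonist, 2-APB against control, none of the 35 genes and none of all tested genes passed limma's test (0%). At an unadjusted p under 0.05 stood 0 of the 35, against 2.80% of tested genes (1.37% higher and 1.43% lower). edgeR and DESeq2 also called 0 of the 35, with 0 at an unadjusted p under 0.05 (2.14% and 2.01% of the genes they tested). Without control 3 limma put 6 of the 35 there, beside 9.61% of tested genes. It put 2 there without 2-APB 3 (3.42%) and 1 without control 2 (2.39%). SLC7A1 had the smallest p, with means of 4126 ± 422 (SD, n = 3) in control and 3428 ± 411 in the 2-APB group. Its log2 fold change was -0.27 (SE 0.12, limma adjusted p = 0.9995).

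VLDLR (0.34, SE 0.17), DDIT4 (0.45, SE 0.26), EPRS1 (0.16, SE 0.10), SESN2 (-0.20, SE 0.17) and PPP1R15A (-0.37, SE 0.33) followed. Single libraries moved these values: without control 3 PPP1R15A changed sign, to 0.03, SESN2 stood at -0.01 and DDIT4 at 0.73. DDIT4 stood at 0.16 and SESN2 at -0.31 without control 1, PPP1R15A at -0.73 and VLDLR at 0.19 without control 2. Values were positive for 17 and negative for 18 genes (median -0.007, beside -0.002 over all tested genes). This split rests on single libraries, since 24 of the 35 signs changed when some 1 library was left out and 11 did not. Positive values numbered 23 after upper-quartile rescaling and 22 after quantile normalization. ATF4 (0.02, SE 0.18) and its targets TRIB3 (-0.08, SE 0.16) and CHAC1 (-0.02, SE 0.34) were near 0. ASNS (0.51, SE 0.54) had the highest value of the 35 and PSAT1 (-0.45, SE 0.61) the lowest, each smaller in size than its SE. The groups did not overlap for EPRS1 alone of the 35 (7.57% of tested genes), in the higher direction (3.61%) and for 0 in the lower (3.97%).

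2-APB against SKF-96365 sets the compounds side by side. Doses are not given, so the groups are compared and not equal exposures. None of the 35 genes passed limma's test and none of all tested genes did (0%, smallest adjusted p = 0.684). DESeq2 called 1 gene (0.00570%) and edgeR 0, in neither case a member. A limma fit to these groups alone called 4 genes (0.0238%), and the fit without control 3 also called 4 (0.0232%), again 0 of the 35. At an unadjusted p under 0.05 stood 7 of the 35, against 7.30% of tested genes. Without SKF-96365 2, SKF-96365 3 or 2-APB 2 they were 3 each, beside 2.75% to 3.96% of tested genes, and without 2-APB 1 they were 2, beside 3.47%. edgeR and DESeq2 each put 2 there, against 2.83% and 2.75%.

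PPP1R15A had means of 1539 ± 243 (SD, n = 3) under the inhibitor and 736 ± 176 under the agonist. Its log2 fold change was -1.08 (SE 0.33, limma adjusted p = 0.684). STC2 (-1.25, SE 0.50) and SESN2 (-0.38, SE 0.17) were also on the lower side, 3 genes against 4.09% of tested genes. On the higher side were PSPH (0.59, SE 0.19), PSAT1 (1.62, SE 0.61), SLC1A4 (0.45, SE 0.17) and PHGDH (0.38, SE 0.17), 4 genes against 3.21%. PSAT1 stood at 0.78 if SKF-96365 3 was left out. Without both control 3 and SKF-96365 1, limma called 8 of the 35, 5 higher and 3 lower, against 13.3% of tested genes, with the same limit as above.

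The groups did not overlap for 9 of the 35 genes, against 17.0% of tested genes. ATF5, PSPH, PSAT1 and SLC1A4 were higher with 2-APB (4 genes, against 8.21%), and DDIT3, SESN2, PPP1R15A, STC2 and VLDLR were lower (5 genes, against 8.79%). Positive values numbered 18 of 35, and 23 after quantile normalization. Stress regulators were negative in 6 of 7 (median -0.18) and synthesis enzymes positive in 6 of 8 (median 0.17), beside a median of 0.007 over all tested genes. All 14 proliferation genes were positive (median 0.66), and their part was not tested. This contrast shares libraries with both contrasts against control, so the 3 sets of values are not independent.

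**Figure D3:**
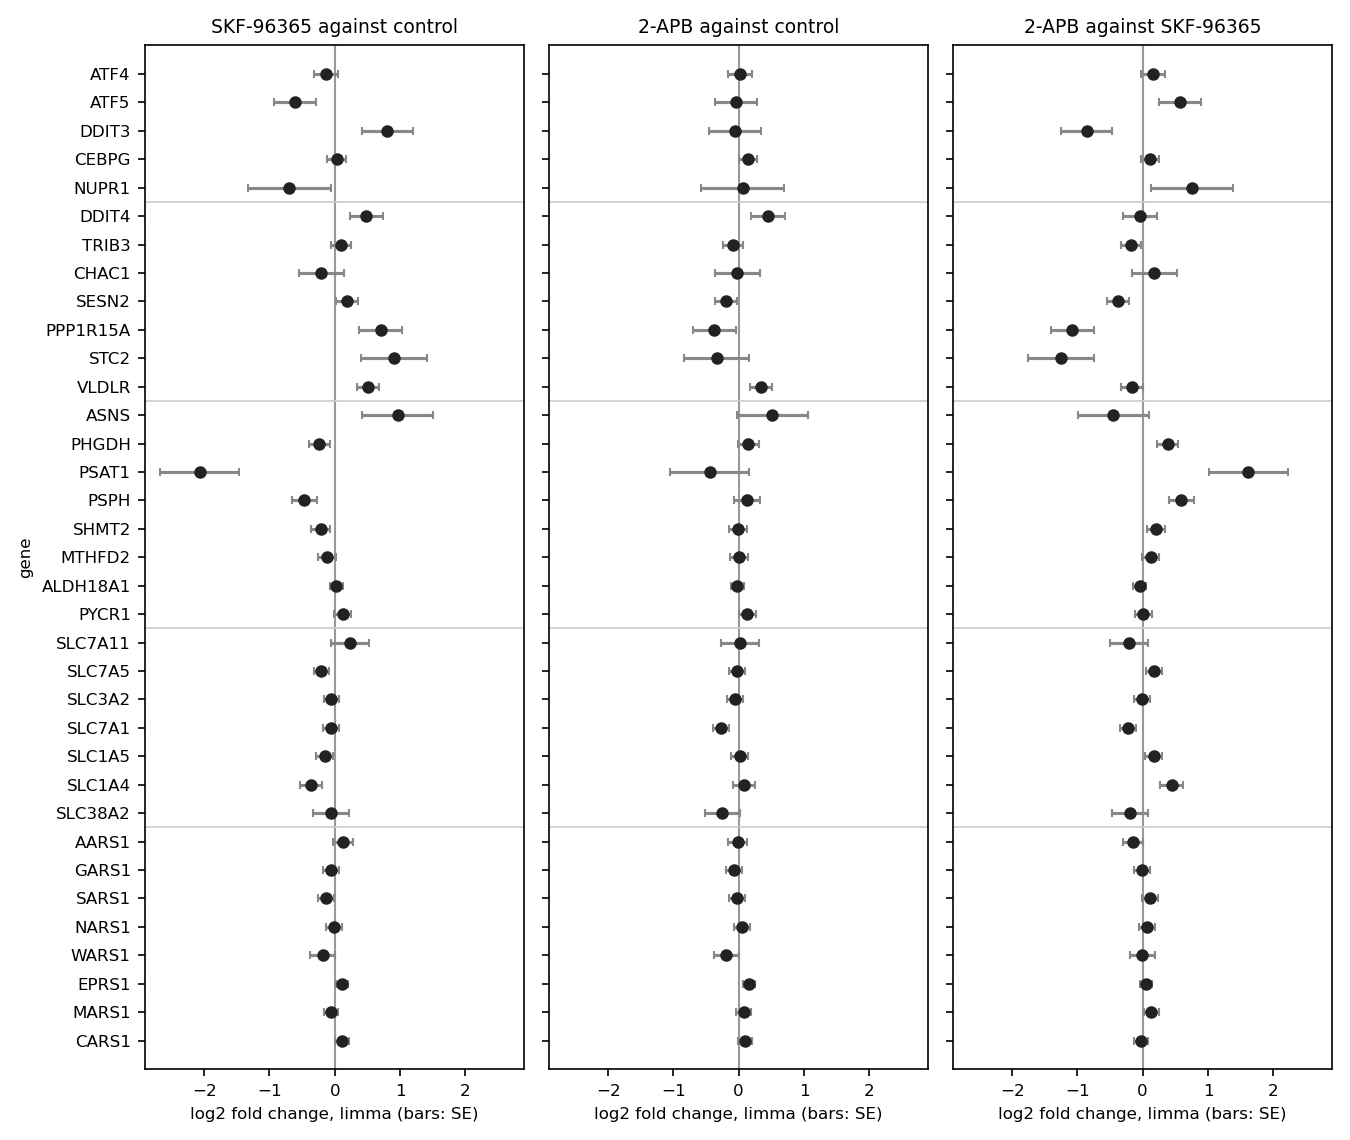
Log2 fold changes (x axis, points) with SE (bars) of the 35 genes (y axis) from limma in the 3 comparisons. PSAT1 and STC2 have the widest displacements, and points against control in the 2-APB panel lie between -0.45 and 0.51.

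Genes of the pathway outside the 35 were taken from 6 lists, and none was called in any of the 3 comparisons. The 12 other cytosolic tRNA synthetases gave a median log2 fold change of -0.11 with SKF-96365 and 0.04 with 2-APB, each against control. Their library order was plainer than in the 8 described above. Control 3, SKF-96365 2 and SKF-96365 3 held the 3 lowest values of 9 of the 12 (75.0%, against 17.6% of all tested genes). They also held those of 13 of the 14 proliferation genes (92.9%). Median deviations of the 12 synthetases in these libraries were -0.26, -0.23 and -0.23 on the log2 scale. TARS1, for threonine, stood at 3659, 4098 and 2424 in control, 3135, 2257 and 2281 with SKF-96365 and 3487, 3285 and 3519 with 2-APB. LARS1 was the exception, with its 3 highest values in those libraries. The 17 mitochondrial synthetases had medians of -0.09 and -0.007, and the same 3 libraries were lowest for 7 of them (41.2%).

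**Figure D4:**
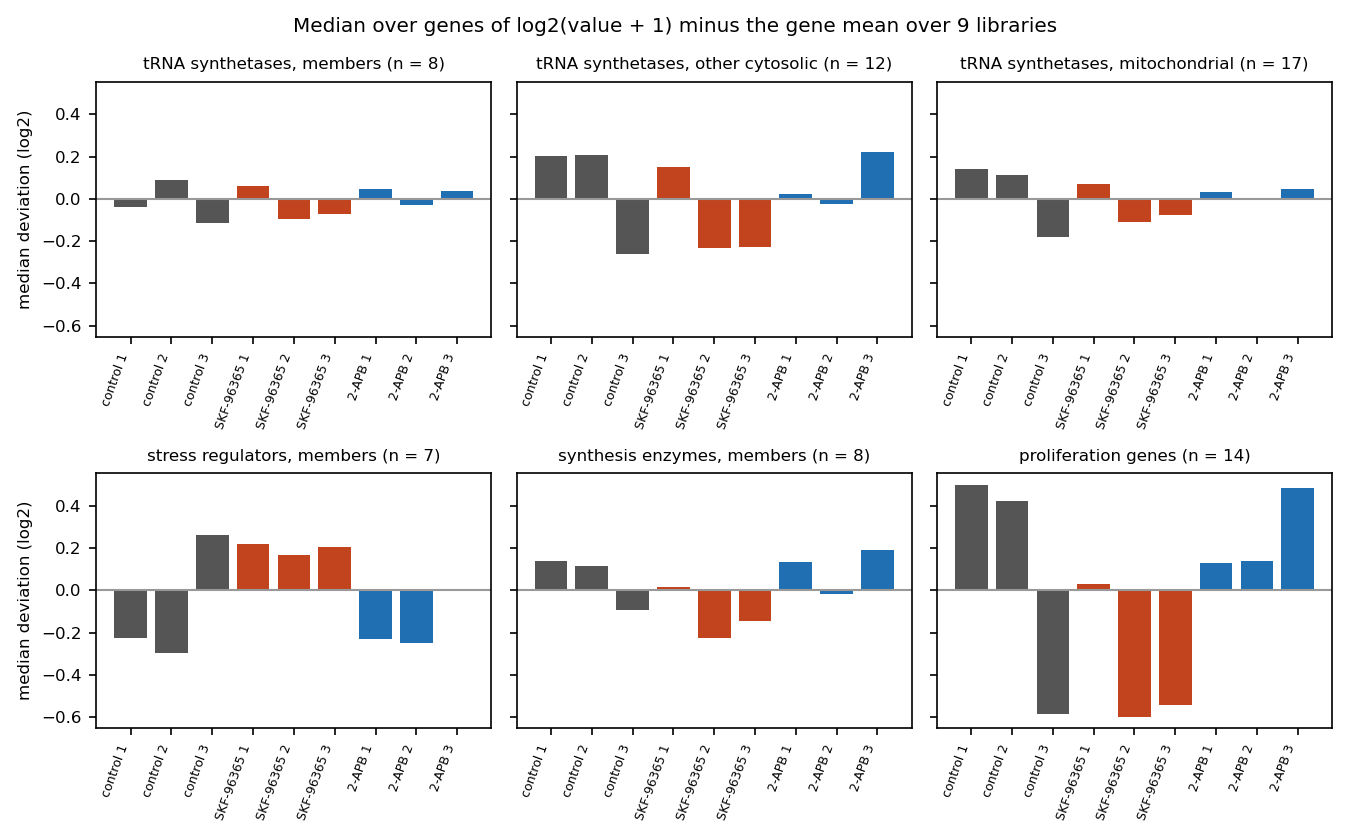
Bars give, for each library (x axis), the median over the genes of a list of log2(normalized count + 1) minus the gene's mean over 9 libraries (y axis); grey is control, red SKF-96365 and blue 2-APB. Control 3, SKF-96365 2 and SKF-96365 3 lie below 0 for all 3 synthetase lists, the synthesis enzymes and the proliferation genes, and above 0 for the stress regulators.

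Upstream, the 15 genes of the eIF2 kinases, eIF2, eIF2B and its regulators had medians of -0.09 with SKF-96365 and -0.06 with 2-APB against control. EIF2S1, the phosphorylated subunit, stood at 3048, 3175 and 1792 in control, 2707, 1868 and 1888 with SKF-96365 and 2121, 2152 and 2777 with 2-APB. Control 3, SKF-96365 2 and SKF-96365 3 were its 3 lowest libraries. That held for only 4 of the 15 genes (26.7%, against 17.6% of all tested genes). The same libraries were the 3 highest for 1 of the 15 (6.67%, against 16.4%). EIF2S1 and LARS1 were named after their values were seen. The 12 tested enzymes of serine, folate and proline metabolism outside the 35 were negative in 10 with SKF-96365 (median -0.18) and positive in 8 with 2-APB (0.02). TYMS, thymidylate synthase, is also on the proliferation list. The 15 genes of the endoplasmic reticulum list, mostly chaperones and targets of the parallel ATF6 and XBP1 arms, had medians of 0.03 and -0.07. The list also holds HERPUD1, SEL1L and XBP1, which are not chaperones. HERPUD1 stood at 1003, 1098 and 1046 in control, 1228, 1175 and 1131 with SKF-96365 and 1183, 1201 and 1205 with 2-APB, both treated groups lying above control without overlap, as 3.26% and 3.61% of tested genes did. Its log2 fold changes were 0.17 (SE 0.10, limma adjusted p = 0.789) and 0.19 (SE 0.10, adjusted p = 0.9995). DNAJB9, a co-chaperone gene of the same list, lay lower with 2-APB than in control without overlap (3.97% of tested genes), at -0.50 (SE 0.30, limma adjusted p = 0.9995). Its highest 2-APB value and its lowest control value were both 262. Of the 15 genes of this list, 2 lay above control without overlap in the SKF-96365 group and 0 below (2.94% of tested genes). In the 2-APB group, 3 lay above control and 1 below.

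The 26 tested members of the list of other ATF4-responsive genes had a median of 0.04 with SKF-96365 and -0.005 with 2-APB, each against control. For 9 of them (34.6%, against 16.4% of all tested genes) control 3, SKF-96365 2 and SKF-96365 3 were the 3 highest libraries: ATF3, CEBPB, GDF15, ADM2, SLC43A1, KLHL24, HMOX1, BBC3 and TXNIP. Several of these have other well-known inducers, such as NRF2 for HMOX1 and p53 for BBC3. ADM2, a secreted peptide gene, stood at 43.1, 39.6 and 131 in control, 109, 146 and 120.03 with SKF-96365 and 115, 98.8 and 116 with 2-APB. It had the smallest p of the list in both comparisons with control (log2 fold change 1.02, SE 0.39, limma adjusted p = 0.789, and 0.84, SE 0.39, adjusted p = 0.9995). Only control 1 and control 2 stood apart, below all 7 other libraries.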

How the data were processed

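RNA libraries were made with a SMARTer mRNA kit, per the labels. The deposited values are a normalized signal, gene counts scaled by the authors, whose processing notes name DESeq2 without a version. Aligner, counter, build, annotation and strand setting are not given in the sources used here. Symbols were found for 60463 of 60605 Ensembl identifiers. Members and lists were chosen with earlier results of these data known.

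limma 3.58.1 (R 4.3.3), with an intensity trend, was fitted to log2(normalized count + 1) of all 9 libraries over the 17492 genes at 10 or more in at least 3 libraries, with adjustment over all of them. This scale understates changes of low genes. In each library 100% of values were whole multiples, within 0.001, of the smallest. These reads were used for 8 libraries in edgeR 4.0.16 and DESeq2 1.42.0. SKF-96365 3 was left out of the count models because its step of 0.992 lay within the margin around 1 in which a step was not taken as evidence of reads.

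Members are described by their values, and fold changes are given for the 6 smallest p per comparison, for all under an unadjusted p of 0.05 and for a few named after values were seen. In each pathway list the 2 genes with the smallest p against control could be named. Alternatives were other pseudocounts, filters and scalings, no variance trend, fits to 2 groups, a replicate block, other tools and libraries left out. Scripts were tested on simulated data.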

Additional observations from a re-analysis of the deposited data

How the results depend on the processing

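The test of the 35 genes rests on 3 libraries per group, and control 3 and SKF-96365 1 decide its calls. Genes called for SKF-96365 against control numbered 0 to 173 when 1 library was left out, 2 by DESeq2 and 4784 without both control 3 and SKF-96365 1, an alternative chosen after seeing the data. For 2-APB against SKF-96365 they numbered 0 to 4 with 1 library left out, 4 in a fit to the 2 groups, 1 by DESeq2 and 2264 without both libraries. The median log2 fold change of the 35 genes ran from -0.11 to 0.020 for SKF-96365 against control with 1 library left out, and was -0.13 without both. For 2-APB against SKF-96365 it ran from 0.00034 to 0.066, was 0.076 after quantile normalization and 0.066 without both. PPP1R15A in 2-APB against control ran from -0.73 to 0.032 with 1 library left out, and was 0.032 without both. The cause was not tested. Low counts limit NUPR1, PSAT1, CHAC1 and ASNS, and a same-strand exon overlap also limits ASNS.

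The labels share replicate numbers across groups. Deviations from the group means correlated at 0.50, -0.19 and 0.37 between same-numbered libraries of control and SKF-96365. The values were -0.22, -0.03 and -0.27 between control and 2-APB, and -0.29, 0.22 and -0.35 between SKF-96365 and 2-APB. With 3 libraries per group such values cannot decide whether the samples were paired. The numbers were not used as a block in the main fit. With the replicate block limma called 0 genes in each comparison, and put 6, 0 and 7 of the 35 at an unadjusted p under 0.05 for SKF-96365 against control, 2-APB against control and 2-APB against SKF-96365, beside 4.10%, 2.46% and 7.20% of all tested genes.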
